A study of Arabidopsis thaliana with 6 samples.

Results

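IAA31 (AT3G17600), GH3.3 (AT2G23170) and WES1 (AT4G27260) are auxin response and auxin conjugation genes. They were chosen by gene symbol in the supplied probe-to-gene table, where each was paired with 1 probe set, and they make up 3 of the 22746 probe sets of the array that are not controls. Affymetrix ATH1 arrays, which carry short probes for most Arabidopsis genes, measured their transcripts in whole reproductive organs of Arabidopsis thaliana accession Landsberg erecta. All plants were 6 weeks old, were kept at 21°C with 16 h of light and 8 h of darkness, and received no treatment that the labels name. The 3 groups were closed buds harvested just ahead of pollination, open flowers that had been pollinated, and siliques, the young fruits, taken 2 d after pollination with the withering floral organs removed. Each group had 2 arrays, 1 from each of 2 runs of the whole experiment, and each array was made from material pooled over 12 plants. The organs harvested differ between the stages by design, and in such bulk samples fewer cells of a type and less RNA per cell cannot be told apart.

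Auxin acts by bringing together an F-box receptor of the TIR1/AFB family and an Aux/IAA repressor, which is then degraded and releases the ARF transcription factors it held. Among the genes that ARFs switch on are the Aux/IAA genes themselves and GH3 genes, whose enzymes join auxin to amino acids and so remove it from the active pool. In Arabidopsis, auxin made in the fertilised ovules is known to start fruit growth. IAA31 is an Aux/IAA protein with an imperfect degron, the short stretch that the receptor recognises, and is known to be longer lived than most of its family. GH3.3 and WES1, which is also called GH3.5, are close relatives that conjugate auxin, and WES1 can also act on salicylic acid.

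IAA31 showed the largest stage differences of the 3 genes. Its signal was 11.1 and 9.59 in buds, 28.8 and 40.0 in flowers, and 286 and 247 in siliques. The stages did not overlap, and the order from low to high was buds, flowers and siliques in both replicates. GH3.3 had signals of 179 and 138 in buds, 171 and 217 in flowers, and 437 and 501 in siliques. Both silique arrays lay above all 4 other arrays, and the bud and flower arrays overlapped. WES1 stood at 590.2 and 201.2 in buds, 198 and 142 in flowers, and 201.1 and 177 in siliques. The first bud array alone was high, and the other 5 arrays lay close together.

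**Figure D1:**
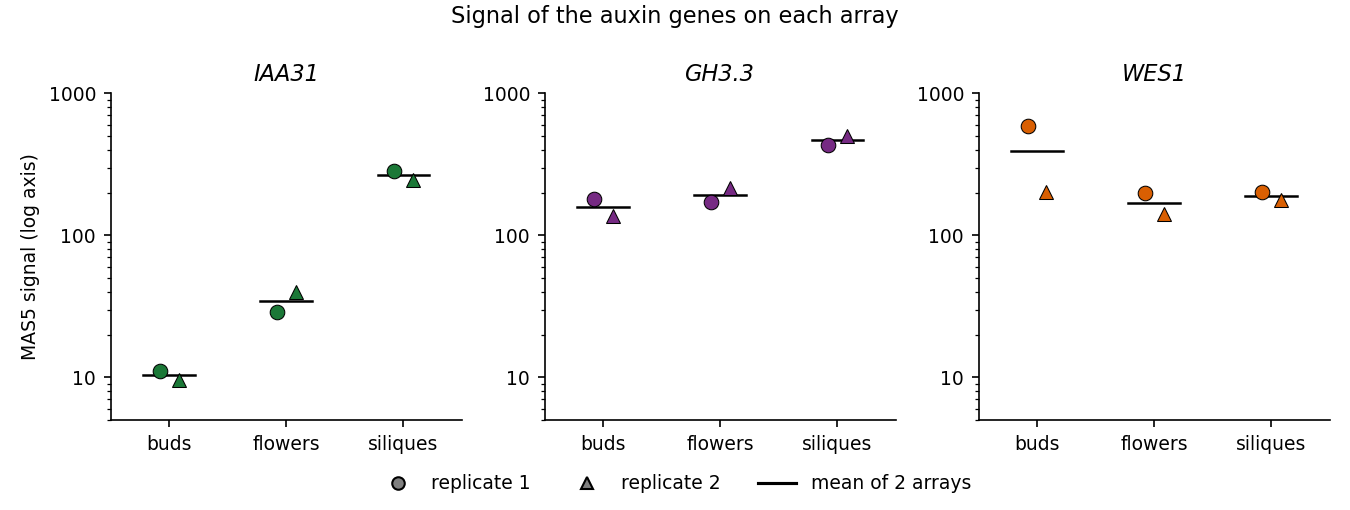
Each point is the MAS5 signal (log axis) of IAA31, GH3.3 or WES1 on 1 array, with circles for replicate 1, triangles for replicate 2 and a line at the mean of the 2 arrays. IAA31 climbed through a mean of 10.3 in buds, 34.4 in flowers and 266 in siliques, GH3.3 was highest in siliques at 437 and 501, and WES1 was high on the first bud array alone, at 590.2.

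The arrays share a scale, since the deposited values of each have the same trimmed mean (100.01 after leaving out 2% at either end), and median signals ran from 41.5 to 48.3. The second silique array stood apart in its spiked controls, with a median of 302 against 149 to 169 on the others. Its ratio of 3' to 5' GAPDH signal was also the highest, at 1.67 against 1.12 to 1.61. The effect of this on the silique results was not tested. Testing was limited to the 12075 probe sets with a signal of 50 or more on 2 or more arrays. All 3 genes passed, IAA31 only through its 2 silique arrays, so that a probe set kept in this way had to differ between stages. Differences were tested with limma on log2(signal + 10), with p values adjusted by the Benjamini-Hochberg method over all 12075 probe sets. The offset of 10 makes a log2 change smaller than the ratio of the signals where a signal is low. The 3 comparisons share arrays with one another, so they are not independent. Marker lists were checked by their summed signals. The 4 tapetum markers summed to 2764 and 3920 in buds and to 79.9 to 127 on the other arrays. The 4 nectary, petal and stamen markers summed to 2158 and 3096 in flowers and 51.0 to 429 elsewhere; of these SWEET9 and TPS24 were called higher in flowers than in buds, and JMT and BPEp were not. The 4 pollen markers summed to 206 and 242 in flowers, against 485 and 264 in buds, and 2 of them, AGL66 and AGL104, were called lower in flowers. ANX2 went the other way, at 61.8 and 25.4 in buds and 111 and 151 in flowers, without a call. MGH3 was lower in flowers, also without a call. The 4 ovule and seed coat markers summed to 1478 and 1636 in siliques and 90.7 to 397 elsewhere. Of the last, INO was called in no comparison, and the endosperm gene AGL62 did not exceed a signal of 12.2 on any array.

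The comparison of siliques with flowers shows how the auxin genes differ between the flower and the young fruit. IAA31 averaged 266 ± 27.4 in siliques and 34.4 ± 7.93 in flowers (SD, n = 2 each). The ratio of the signals was 9.93 in replicate 1 and 6.17 in replicate 2. On the log2 scale the rise was 2.65 ± 0.20 (limma standard error, adjusted p = 0.00186 by limma), the 26th largest rise among the 12075 tested probe sets. GH3.3 averaged 469 ± 45.1 in siliques and 194 ± 32.5 in flowers (SD, n = 2 each). It rose by 2.56 times in replicate 1 and 2.31 times in replicate 2, a log2 change of 1.24 ± 0.19 (adjusted p = 0.0139 by limma). These were 2 of the 3 genes called higher, against 7.23% of all tested probe sets (14.7% were called in either direction). IAA31 was tested only because of its silique signals, so its place in this count is not independent of the filter. GH3.3 lost its call when any 1 flower or silique array was left out (adjusted p = 0.0502 to 0.0825), with log2 changes of 1.08 to 1.40, whereas that of IAA31 held with each of the 6 arrays left out in turn (adjusted p = 0.00315 to 0.0288).

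WES1 did not pass in this comparison. Its mean signal was 189 ± 17.4 in siliques and 170.3 ± 39.4 in flowers (SD, n = 2 each), and the 2 stages overlapped. The log2 change was 0.16, with a 95% interval of −0.93 to 1.24 (adjusted p = 0.851 by limma). The upper end of this interval is as large as the change of GH3.3, but its width takes in the spread between the bud arrays. The standard error was 0.454 in this fit and 0.195 when only the flower and silique arrays were fitted. Without the second flower array the change of WES1 was −0.0692. On the same arrays the log2 change of GH3.3 exceeded that of WES1 by 1.29 in replicate 1 and 0.88 in replicate 2. With 2 pairs of arrays this difference between the genes was not tested.

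Open flowers were set against closed buds to see what differs around the opening and pollination of the flower. IAA31 averaged 34.4 ± 7.93 in flowers and 10.3 ± 1.04 in buds (SD, n = 2 each). The ratio of the signals was 2.60 in replicate 1 and 4.17 in replicate 2, and the log2 change was 1.12 ± 0.20 (adjusted p = 0.0160 by limma). The bud signals of 11.1 and 9.59 lay just above the highest of the control probe sets without a target in the sample, which reached 10.1 and 7.80 on those arrays. The size of this rise therefore depends on the offset: it was 1.63 with an offset of 1 and 0.64 with an offset of 32, and it passed the test with both. The call was lost without the second bud array (adjusted p = 0.0697), without the second flower array (0.103), and when only the bud and flower arrays were fitted (0.0642).

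IAA31 was the only one of the 3 genes called in flowers against buds, where 10.7% of tested probe sets were called, 4.53% higher and 6.13% lower. GH3.3 averaged 194 ± 32.5 in flowers and 158 ± 29.5 in buds (SD, n = 2 each). Its ratio was 0.952 in replicate 1 and 1.57 in replicate 2, so the replicates went in opposite directions (log2 change 0.28, 95% interval −0.19 to 0.74, adjusted p = 0.438 by limma). WES1 averaged 170.3 ± 39.4 in flowers and 396 ± 275 in buds (SD, n = 2 each). The log2 change was −0.999 with a 95% interval of −2.09 to 0.09 (adjusted p = 0.237 by limma). It was −0.25 without the first bud array, and −1.75 without the second, when it passed the test (adjusted p = 0.0158).

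Over the whole span, from closed bud to young fruit, IAA31 was 25.8 times as high in siliques as in buds in each replicate, by the ratio of the signals. Its log2 change was 3.76 ± 0.20 (adjusted p = 0.000129 by limma), a fitted factor of 13.6 with a 95% interval of 9.77 to 18.9. With an offset of 1 the log2 change was 4.56, and with an offset of 32 it was 2.81. GH3.3 was 2.44 times as high in siliques as in buds in replicate 1 and 3.64 times as high in replicate 2, with a log2 change of 1.52 ± 0.19 (adjusted p = 0.00371 by limma). Both calls held with each of the 6 arrays left out in turn, and 2 of the 3 genes were thus called higher, against 7.03% of all tested probe sets (15.6% in either direction). Here too, IAA31 had passed the filter only through its silique arrays. WES1 did not pass: its log2 change was −0.84, with a 95% interval of −1.93 to 0.24 (adjusted p = 0.249 by limma). Without the first bud array it was −0.0900, and without the second −1.60 (adjusted p = 0.0142). The first silique array, at 201.1, lay barely below the second bud array, at 201.2.

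**Figure D2:**
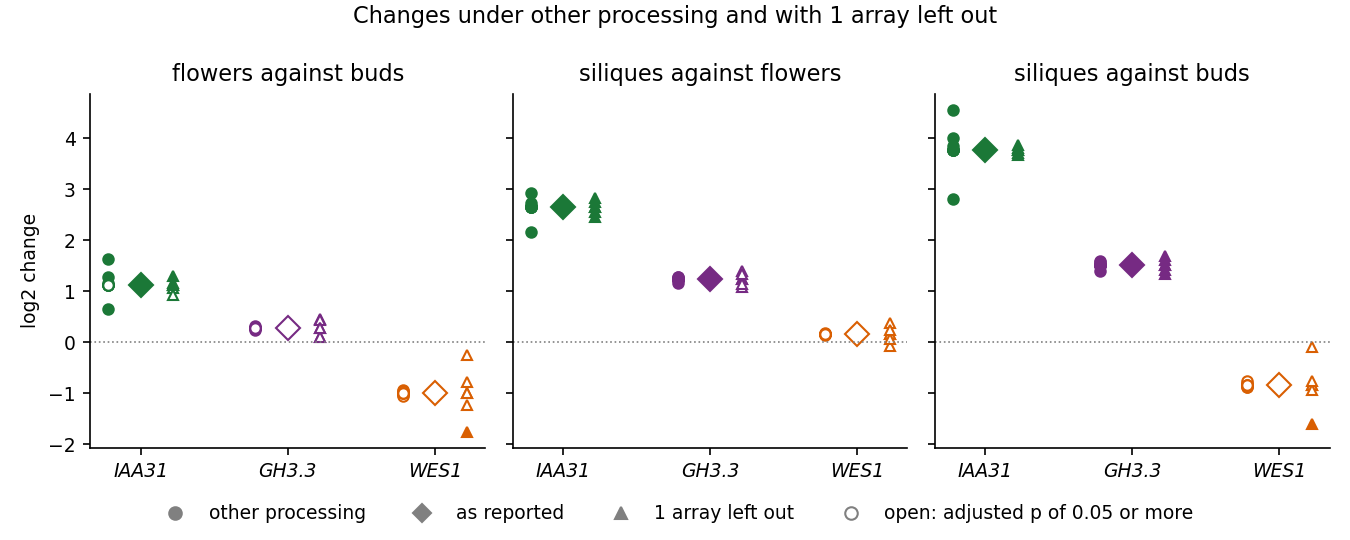
The log2 change of IAA31, GH3.3 and WES1 in each comparison as reported (diamonds), under 9 other processing settings (circles) and with 1 of the 6 arrays left out (triangles), with open symbols where the adjusted p was 0.05 or more. The circles of WES1 lay within −1.05 to −0.93 for flowers against buds, whereas its triangles ran from −1.75 to −0.25.

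In siliques IAA31 and GH3.3 were higher along with 2 of the 4 listed ovule and seed coat markers. Of the 4 markers in that list, BAN, which makes the tannin precursors of the seed coat, and DFR, which acts upstream of it in the same pathway, were called higher in all 3 comparisons. GH3.3, unlike these genes, was not called in flowers against buds. INO, a regulator of the outer integument, was called in none, and AGL62 was below the filter. In siliques BAN averaged 661 and DFR 821, against 65.6 for INO and 9.09 for AGL62. The summed signal of the list was 90.7 and 94.3 in buds, 304 and 397 in flowers, and 1478 and 1636 in siliques, in the same order as IAA31. BAN lay under a signal of 1 on both bud arrays. Like IAA31, it passed the filter only through its 2 silique arrays, so its calls in siliques are not independent of the filter. The part of these tissues in the rise of IAA31 and GH3.3 was not tested.

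Auxin response also includes the other members of the same families, of which few could be followed. Of 116 genes listed for auxin perception, response, transport, synthesis and inactivation, 23 had a probe set of their own in the supplied gene table and 8 were tested. No probe set was paired with a listed ARF, TIR1/AFB receptor or transporter. Beside the 3 genes already described, the tested genes were IAA18, GH3.17, UGT74D1, DAO1 and HAT2. For siliques against flowers, 0 of these 5 were called higher, 3 were called lower and 2 were not called. Their median log2 change was −1.03 against 0.02 over all tested probe sets, where 7.45% were called lower. For flowers against buds, 1 was called higher and 0 lower, against 4.53% and 6.13% of all tested probe sets, with a median of 0.35 (−0.01 over all). For siliques against buds, 0 were called higher and 1 lower, with a median of 0.38 (0.00 over all), where 8.52% of probe sets were called lower.

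IAA18, another Aux/IAA repressor, had signals of 131 and 107 in buds, 192 and 167 in flowers, and 80.4 and 84.8 in siliques. It was highest in flowers and lowest in siliques, with no overlap between the stages. It fell in siliques relative to flowers by 1.03 ± 0.16 on the log2 scale (adjusted p = 0.0139 by limma), the comparison in which IAA31 rose. That call was lost without either flower array or either silique array (adjusted p = 0.0549 to 0.0913). The other Aux/IAA genes with a probe set, IAA20, IAA29, IAA30, IAA33 and IAA34, were below the filter and none exceeded a signal of 16.6 on any array. IAA20 and IAA30 are, like IAA31, Aux/IAA proteins that depart from the family's usual degron.

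GH3.17, which conjugates auxin mainly to glutamate, differed from GH3.3 in the stage at which it was highest. Its signal was 55.4 and 36.8 in buds, 414 and 269 in flowers, and 35.5 and 106 in siliques. Both flower arrays stood above the other 4. The gene rose by 2.64 ± 0.45 in flowers relative to buds (adjusted p = 0.0138 by limma) and fell by 2.24 ± 0.45 in siliques relative to flowers (adjusted p = 0.0267 by limma), both on the log2 scale. The rise lost its call without the second bud array (adjusted p = 0.0801) or the first flower array (0.0761), and the fall without the first flower array (0.135), the second flower array (0.0748) or the first silique array (0.0913). GH3.9 was below the filter at 13.8 to 36.7, and GH3.1 was at 10.2 and 18.9 in flowers but at most 1.36 on the bud and silique arrays. Thus the 3 tested GH3 genes had their highest array in 3 different stages, GH3.3 in siliques, GH3.17 in flowers and WES1 in buds, the last on 1 array of 2.

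Of the other routes of auxin inactivation, UGT74D1, a glucosyltransferase that acts on auxin and its oxidised form, was lower in siliques. Its signal was 159 and 137 in buds, 145 and 227 in flowers, and 65.5 and 56.2 in siliques. Both silique arrays lay below all others. It fell by 1.44 ± 0.23 on the log2 scale relative to flowers (adjusted p = 0.0141 by limma) and by 1.16 ± 0.23 relative to buds (adjusted p = 0.0188 by limma). The first of these calls was lost without the second flower array or either silique array (adjusted p = 0.0586 to 0.0734), and the second without the first bud array or either silique array (0.0702 to 0.104). DAO1, the dioxygenase that oxidises auxin, had a signal between 54.9 and 85.4 on all arrays and passed in no comparison (adjusted p = 0.184 to 0.917 by limma).

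HAT2, an auxin-induced homeodomain gene, had signals of 225 and 112 in buds, 163 and 204 in flowers, and 263 and 230 in siliques. Both silique arrays were above the rest, the first bud array by the smallest margin. It did not pass for siliques against buds (log2 change 0.59, 95% interval −0.14 to 1.33, adjusted p = 0.234 by limma), and passed without the first bud array (log2 change 1.07, adjusted p = 0.0378). The auxin synthesis genes YUC2, YUC4, YUC6 and YUC11, which encode flavin monooxygenases of the last step, were all below the filter. YUC6 was at 33.7 and 34.1 in buds, 21.4 and 25.1 in flowers, and 69.9 and 48.6 in siliques, highest on the silique arrays. YUC2 was at 36.8 and 50.9 in buds, 34.6 and 42.6 in flowers, and 15.8 and 24.1 in siliques, lowest on the silique arrays. These 2 genes were not tested.

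**Figure D3:**
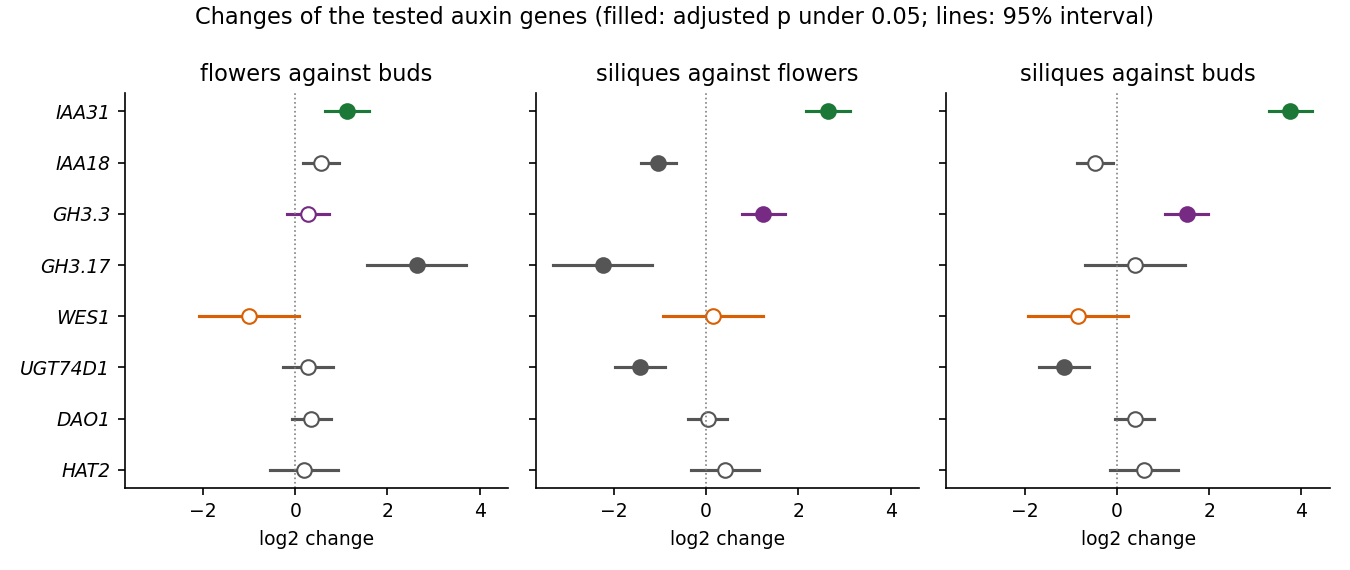
The log2 change of log2(signal + 10) for the 8 tested auxin genes in each comparison, with 95% intervals from limma and filled points where the adjusted p was under 0.05. For siliques against flowers IAA31 (2.65) and GH3.3 (1.24) lie to the right of 0, and IAA18 (−1.03), GH3.17 (−2.24) and UGT74D1 (−1.44) to the left.

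The genes with the most similar pattern over the 6 arrays were found among the 977 other tested probe sets of a single gene with a symbol. Each profile of log2(signal + 10) was centred on its own mean, and likeness was the root mean square difference between profiles. The arrays share their stage and scale, so likeness is a description of these 6 arrays. Nearest to IAA31 was RR22, a cytokinin response regulator, at a difference of 0.34 (Pearson r = 0.998). Its mean signal was 1.19 in buds, 23.8 in flowers and 259 in siliques, against 10.3, 34.4 and 266 for IAA31 in the same stages. The next were scpl20, a serine carboxypeptidase-like gene, RALFL28 and LCR24, which encode small secreted peptides of the RALF and cysteine-rich families, and TBL36, of a family that acetylates wall polysaccharides, at 0.58 to 0.65. These were all highest in siliques, a feature that the choice by likeness favours. Their log2 changes in flowers against buds were −0.14 for RALFL28, 2.43 for LCR24 and 0.86 for TBL36, against 1.12 for IAA31, and these differences between genes were not tested. RALFL28 had a signal under 10 on all bud and flower arrays, below the highest control without a target on each. RR22 and LCR24 were also below that control on both bud arrays. RR22 and RALFL28 passed the filter only through their silique arrays. With an offset of 1, only scpl20 and TBL36 were again among the 5 nearest.

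The profile of GH3.3 varied less over the arrays than that of IAA31. The neighbours of GH3.3 were closer, at 0.18 to 0.26, but not by Pearson r (0.933 to 0.965, against 0.945 to 0.998 for IAA31). They were CHLI2, a subunit of the magnesium chelatase of chlorophyll synthesis, BGLU15, a beta-glucosidase, FOLB1, of folate synthesis, SP1L5, of a family that acts on microtubules, and SCPL27, a carboxypeptidase-like gene. CHLI2 had a mean of 72.6 in buds, 82.6 in flowers and 210.3 in siliques, which is the shape of GH3.3, level in buds and flowers and higher in siliques. With an offset of 1, 3 of the 5 were again among the nearest, CHLI2, BGLU15 and SP1L5.

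The nearest profiles to WES1 lay at 0.29 to 0.38, and in all 5 the first bud array was the highest of the 6. The choice by likeness to WES1 favours this feature. STR18, a sulfurtransferase, was at 228 and 125 in buds, and AKINBETA1, a subunit of the SnRK1 energy-sensing kinase, at 263 and 123. BAT1, an acyltransferase that acts on brassinosteroids, SPT, a transcription factor of the carpel margin, and psbE, a plastid gene of photosystem II, made up the 5. The excess of the first bud array over the second was smaller in these 5 (1.29 to 2.14 times) than in WES1 (2.93 times). In psbE it was no larger than the replicate ratio in flowers (1.39) or siliques (1.32). In BAT1 both bud arrays, at 85.8 and 55.9, lay above the other 4, as they did in STR18 and psbE. STR18 was called lower in flowers than in buds (adjusted p = 0.0493 by limma). BAT1 was called lower in siliques than in buds (adjusted p = 0.0344 by limma). The 5 genes had no other call. With an offset of 32 and with quantile normalization, STR18, AKINBETA1 and BAT1 were again among the nearest.

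**Figure D4:**
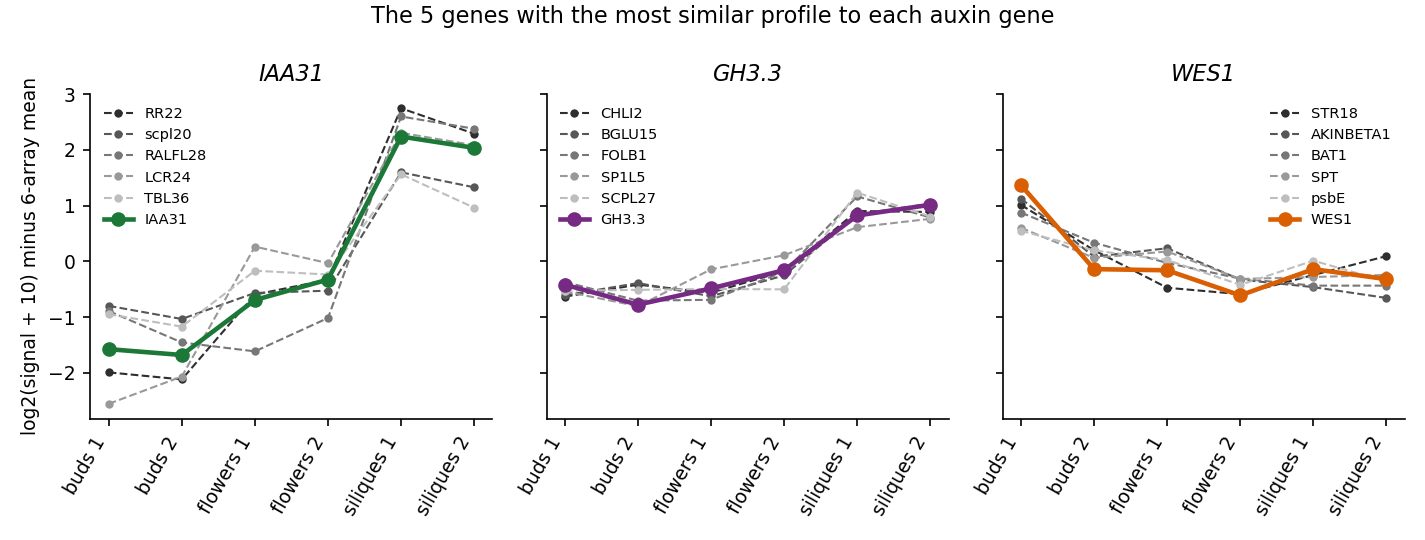
Log2(signal + 10) on each of the 6 arrays, minus the gene's own 6-array mean, for IAA31, GH3.3 and WES1 (coloured) and the 5 genes with the smallest root mean square difference from each (grey, dashed). Lines join the points of 1 gene and mark no order of replicates. RR22 lies nearest to IAA31 (0.34), and the 5 neighbours of WES1 are highest on the first bud array, by less than WES1. The choice by likeness favours a shared highest array.

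The difference between the bud arrays for WES1 was large for these data. The first exceeded the second by 2.93 times, or by 1.51 on the log2(signal + 10) scale, and 126 of the 12075 tested probe sets (1.04%) differed by at least as much between the bud arrays. The corresponding shares for IAA31 and GH3.3 in buds were 75.3% and 31.0%. WES1 differed less between replicates in flowers (1.39 times) and siliques (1.14 times). The bud arrays as a whole correlated at r = 0.936 over tested probe sets, against 0.963 for the flower arrays and 0.961 for the silique arrays. The 4 pollen markers summed to 485 on the first bud array and 264 on the second, and the 4 tapetum markers to 2764 and 3920. The part of these cell types in the WES1 difference was not tested.

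**Figure D5:**
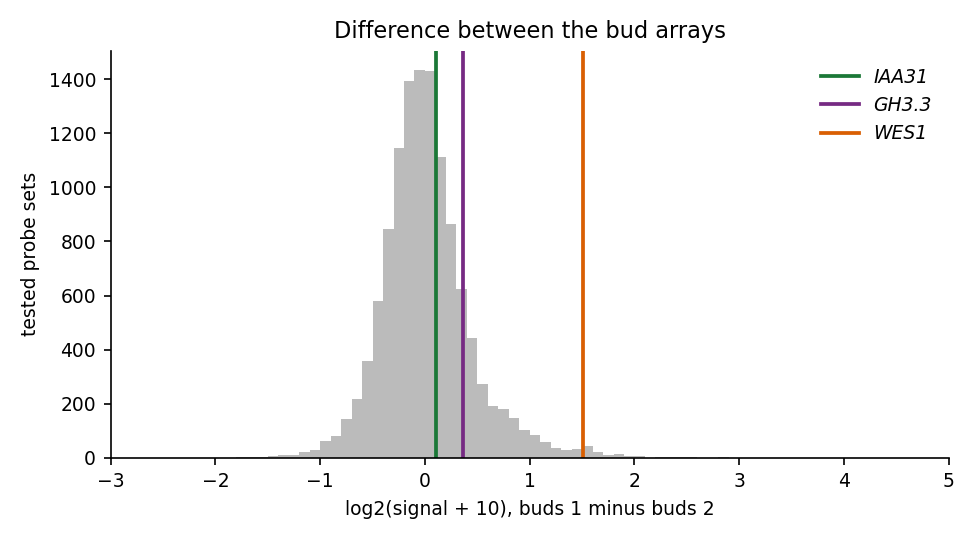
Histogram of the difference in log2(signal + 10) between the first and second bud arrays over the 12075 tested probe sets, with lines at IAA31 (0.10), GH3.3 (0.36) and WES1 (1.51). WES1 lies in the right-hand tail, where 117 probe sets had a difference of its size or larger in that direction.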

How the data were processed

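The deposited table holds 1 intensity per probe set and array, on a linear scale; per the submitters' processing notes the tool was MAS5, with version and settings not given in the sources used here. No column was left out. Gene names came from the platform annotation supplied with the data: it gives 1 gene for 13513 probe sets, of which 13436 matched RefSeq, and several for 503. The 64 control probe sets stayed out of the tests. Signals were offset by 10 and log2 transformed, and limma 3.58.1 under R 4.3.3 was fitted (lmFit, contrasts.fit, eBayes with an intensity trend) to all 6 arrays as 3 groups, with 3 residual degrees of freedom. Tests are two-sided. Calls were made at an adjusted p under 0.05, and ± after a mean signal is the SD of 2 arrays. Precision is limited by the number of arrays. The p-values rest on the spread between the 2 pooled samples of a stage, averaged over all 3 stages. The eBayes step then draws this spread toward the intensity trend (median prior degrees of freedom 3.609). A p-value therefore does not measure the spread within the 2 compared stages alone.

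The genes, the lists and the tests were chosen with earlier results of these data known. Named genes were IAA31, GH3.3 and WES1, all tested genes of the auxin lists, and the 5 nearest profiles to each; auxin genes below the filter were named after their values were seen. Alternatives changed the offset, filter, normalization, trend, replicate term or arrays. Per the labels the whole experiment was run 2 times, so the replicate numbers pair the samples. The fit behind the reported errors and p-values has no replicate term, and the paired fit is an alternative. Replicate differences correlated at 0.34 between buds and flowers, −0.01 between buds and siliques and 0.17 between flowers and siliques.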

Additional observations from a re-analysis of the deposited data

How the results depend on the processing

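Of 135 values of IAA31, GH3.3 and WES1 under alternatives, 125 kept their direction and side of the threshold. With only the arrays compared, IAA31 in flowers against buds had a log2 change of 1.12 and lost its call (adjusted p = 0.0642). Adding replicate as a term (the replicate block) changed no call of the 8 auxin genes; for WES1 in flowers against buds it gave −0.999 with adjusted p = 0.107. With 1 array left out, where a lone array is assumed to vary like the other groups, IAA31 ran from 0.93 to 1.30 for flowers against buds. GH3.3 then ran from 1.08 to 1.40 for siliques against flowers. WES1 ran from −1.75 to −0.25 for flowers against buds, from −0.0692 to 0.38 for siliques against flowers and from −1.60 to −0.0900 for siliques against buds. Directions of changes that had not passed also turned for GH3.17 in siliques against buds (−0.28 to 1.07), DAO1 in siliques against flowers (−0.10 to 0.17), and UGT74D1 (−0.0215 to 0.59) and HAT2 (−0.29 to 0.65) in flowers against buds. All probe sets called numbered 1287 for flowers against buds (580.0 to 1115 with 1 array left out), 1773 for siliques against flowers (251 to 2036, and 1162 without the filter, where 22746 probe sets were tested) and 1878 for siliques against buds (871 to 1808). Those counts fell by more than 1.5 times without the second bud array (706) or either flower array (663 and 580.0) for flowers against buds. They did so without either flower array (349 and 272) or either silique array (251 and 665) for siliques against flowers, and without the first bud array (990.0) or either silique array (871 and 874) for siliques against buds. The other nearest-profile settings, chosen after seeing the data, kept 2 to 5 of the 5 genes. DAO1 gives no value under the stricter filter.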

Other observations

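The 117 tested probe sets that were higher on the first bud array than on the second by at least the difference of WES1 included 14 genes with a symbol, named here after their values were seen. AT59, a pectate lyase gene, was at 370.2 and 407 in flowers, against 204 and 58.5 in buds, and PLIM2a, an actin-binding protein gene, was at 990 and 911 in flowers, against 668 and 216 in buds. The peptide genes RALFL25 and RALFL26, the expansin gene EXPB5, COR47, SWEET9, CYP71B31 and scpl38 were likewise higher on both flower arrays than on either bud array. WES1 itself was at 198 and 142 in flowers, against 590.2 and 201.2 in buds. Of the 116 other probe sets, 101 had both flower arrays above the second bud array, and 2 had both at or below it, as WES1 did. The choice of these probe sets favours a low second bud array, so the counts follow in part from that choice. The same counts were not made over all tested probe sets. The sugar transporter gene SWEET14 was at 616 and 141 in buds and 80.4 and 222 in flowers. The autophagy gene ATG8H was at 270.1 and 86.0 in buds and 190 and 184 in flowers. CCL was at 1007 and 110 in buds and 654 and 240 in flowers. SIS was at 275 and 78.6 in buds and 105 and 38.0 in flowers. In SWEET14, ATG8H, CCL and SIS both flower arrays lay below the first bud array. The cause of the difference between the bud arrays was not tested.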
